A study of Mus musculus with 4 samples.

Results

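Elastic fibre genes were examined as a set of 10 members, chosen by name, among 33696 gene features of the deposited count matrices. The members were Eln (ENSMUSG00000029675), Fbn1 (ENSMUSG00000027204), Fbn2 (ENSMUSG00000024598), Mfap4 (ENSMUSG00000042436), Mfap5 (ENSMUSG00000030116), Fbln1 (ENSMUSG00000006369), Fbln2 (ENSMUSG00000064080), Fbln5 (ENSMUSG00000021186), Lox (ENSMUSG00000024529) and Loxl1 (ENSMUSG00000032334), and each matched a single feature. UMIs (unique molecular identifiers, each standing for a captured transcript) of the members were summed by cell class, fibroblast state, region and library. The nuclei came from mouse brain at 21 days post-injury (dpi) with a photothrombotic (PT) lesion, an infarct induced in the cortex with light and a dye in the blood. The library labelled control came from wild-type mice, and the library labelled Cxcl12-cKO from mice of the genotype Col1a2(creER); Cxcl12(flox), in which tamoxifen-inducible Cre driven by Col1a2 was aimed at the chemokine gene Cxcl12 in fibroblasts. These are called the control-labelled and cKO-labelled libraries below. Each library pooled 1 male and 1 female mouse, and held lesional and parenchymal nuclei with separate tags, mixed by the authors at 75% and 25%. There was no replicate library of either genotype, so no test of a difference between genotypes was possible, and every interval below covers counting error only.

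Elastic fibres give tissue its recoil and are laid down by cells that secrete elastin onto a scaffold of microfibrils. Eln encodes tropoelastin, the soluble precursor, while Fbn1 and Fbn2 encode fibrillins, the main microfibril proteins, and Mfap4 and Mfap5 encode proteins associated with microfibrils. Fbln1, Fbln2 and Fbln5 encode fibulins, which bind elastin or microfibrils, with Fbln5 needed for fibre assembly, and Lox and Loxl1 encode copper-dependent enzymes that cross-link the fibre. In the body they are best known from arteries, lung and skin, where smooth muscle cells and fibroblasts make the fibres.

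After filtering, 8095 and 7933 lesional nuclei remained in the control- and cKO-labelled libraries, with medians of 2962 and 2975 UMIs, and 2877 and 2838 parenchymal nuclei, with medians of 15915 and 16648 UMIs. UMIs specific to both sexes occurred in 9.75% to 14.3% of the nuclei of the 4 matrices, which neither mouse alone would give. Between libraries, 22 lesional barcodes were shared, and at most 15 in any other pair of matrices. The targeted gene went against its label: in lesional fibroblast-like nuclei Cxcl12 stood at 106 and 215 CPM (UMIs per 1000000 UMIs of the same nuclei) in the control- and cKO-labelled libraries, a log2 ratio of 1.02 (95% counting interval 0.93 to 1.11). Whether the counted 3′ end lay outside the deleted part was not tested. Directions between genotypes below are therefore directions between labelled libraries.

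The promoter table used here (RefSeq, build GRCm38.p6, another build than that of the counts) had usable entries for 4 of the members (Fbn1, Fbln1, Fbln2 and Fbln5), of which 3 are printed because the genes were highest in different fibroblast states, as described below: Fbn1 in late inner-like, Fbln2 in Lama1 leptomeningeal-like and Fbln1 in dural border-like nuclei. Each run gives the 250 bases before the annotated start, 5′ to 3′ on the strand of the gene, with matches to the GC box GGGCGG, the CCAAT box CCAAT and the TATA box TATAAA, on either strand, in capitals. The first lies on the minus strand at chr2:125506439-125506688, the next on the plus strand at chr6:91212514-91212763, and the last on the plus strand at chr15:85205699-85205948, before the first of 2 listed starts.
Fbn1: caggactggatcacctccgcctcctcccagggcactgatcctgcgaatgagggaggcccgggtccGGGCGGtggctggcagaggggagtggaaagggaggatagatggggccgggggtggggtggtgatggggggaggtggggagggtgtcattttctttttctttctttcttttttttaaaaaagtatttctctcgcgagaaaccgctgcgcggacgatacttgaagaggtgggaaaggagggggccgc
Fbln2: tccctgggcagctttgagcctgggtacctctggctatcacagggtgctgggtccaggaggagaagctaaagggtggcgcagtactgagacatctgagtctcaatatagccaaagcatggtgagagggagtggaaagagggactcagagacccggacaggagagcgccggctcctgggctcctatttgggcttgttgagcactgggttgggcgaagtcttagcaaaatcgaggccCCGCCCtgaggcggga
Fbln1: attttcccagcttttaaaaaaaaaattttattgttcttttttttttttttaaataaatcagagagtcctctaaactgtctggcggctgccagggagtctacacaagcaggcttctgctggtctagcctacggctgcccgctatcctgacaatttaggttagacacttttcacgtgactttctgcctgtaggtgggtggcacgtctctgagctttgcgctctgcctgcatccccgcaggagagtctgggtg
The Fbn1 and Fbln2 windows each held 1 GC box, and the Fbln1 window held none of the 3 motifs. Such a box stood in 32.7% of all 32851 promoter windows of this length, the CCAAT box in 33.9% and the TATA box in 12.4%. The Fbln1 window was poorer in G and C (46.4%) than the windows of Fbn1 (59.2%) and Fbln2 (58.8%), where the median over all windows was 52.4%. The window before the other listed start of Fbln1, not printed, differed from it, with 62.4% G and C and 1 GC box, so neither contrast held at that start. These matches describe the letters of the windows and carry no information on binding.

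Most lesional UMIs of the elastic fibre genes were counted in fibroblast-like nuclei. In the control-labelled library 80.1% of 17622 member UMIs lay in fibroblast-like nuclei (Clopper-Pearson interval 79.5% to 80.7%), and in the cKO-labelled library 83.9% of 22242 (83.4% to 84.4%). The same nuclei made up 51.4% of lesional nuclei in both libraries and gave 42.7% and 47.5% of all lesional UMIs. By gene, the share ran from 49.2% (Fbln2) to 88.1% (Fbln1) in the control-labelled library, and from 64.9% (Fbn2) to 91.6% (Mfap5) in the cKO-labelled library. Fbn2 and Fbln2 were the members with the lowest shares in both libraries. The markers of the class (Col1a1, Col1a2, Col3a1, Pdgfra, Dcn and Lum) together had 4147 and 3620 CPM in fibroblast-like nuclei against 534 and 340 CPM in myeloid-like nuclei. They did not single out the class, since osteoblast lineage-like nuclei held 9988 and 7563 CPM of them, and oligodendrocyte precursor-like nuclei 1360 and 1490 CPM.

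Ranked over the 10 classes with at least 50 lesional nuclei, 6 of the 10 members had their highest level in fibroblast-like nuclei, where 7.47% of 19531 genes did. These were Eln, Fbn1, Mfap4, Mfap5, Fbln1 and Loxl1. For Fbn1 the level was 406 CPM (399 to 413), against 164 CPM (144 to 185) in the next class, oligodendrocyte precursor-like nuclei. For Fbln1 it was 261 CPM (256 to 267), with osteoblast lineage-like nuclei next at 99.8 CPM (82.4 to 120). Neither pair overlapped. The microfibril-associated genes, Mfap4 at 33.1 CPM (31.0 to 35.2) and Mfap5 at 14.3 CPM (13.0 to 15.8), stood above their levels in every other ranked class beyond counting error. The first place was shared for 2 of the 6: Eln did not differ beyond counting error between fibroblast-like (185 CPM, 180 to 190) and endothelial-like nuclei (174 CPM, 138 to 217), nor Loxl1 between fibroblast-like (112 CPM, 108 to 116) and osteoblast lineage-like nuclei (110.3 CPM, 91.9 to 131). Lox, with 25.2 CPM (16.9 to 36.2) in osteoblast lineage-like nuclei and 23.0 CPM (21.3 to 24.8) in fibroblast-like nuclei, did not separate these classes either.

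**Figure D1:**
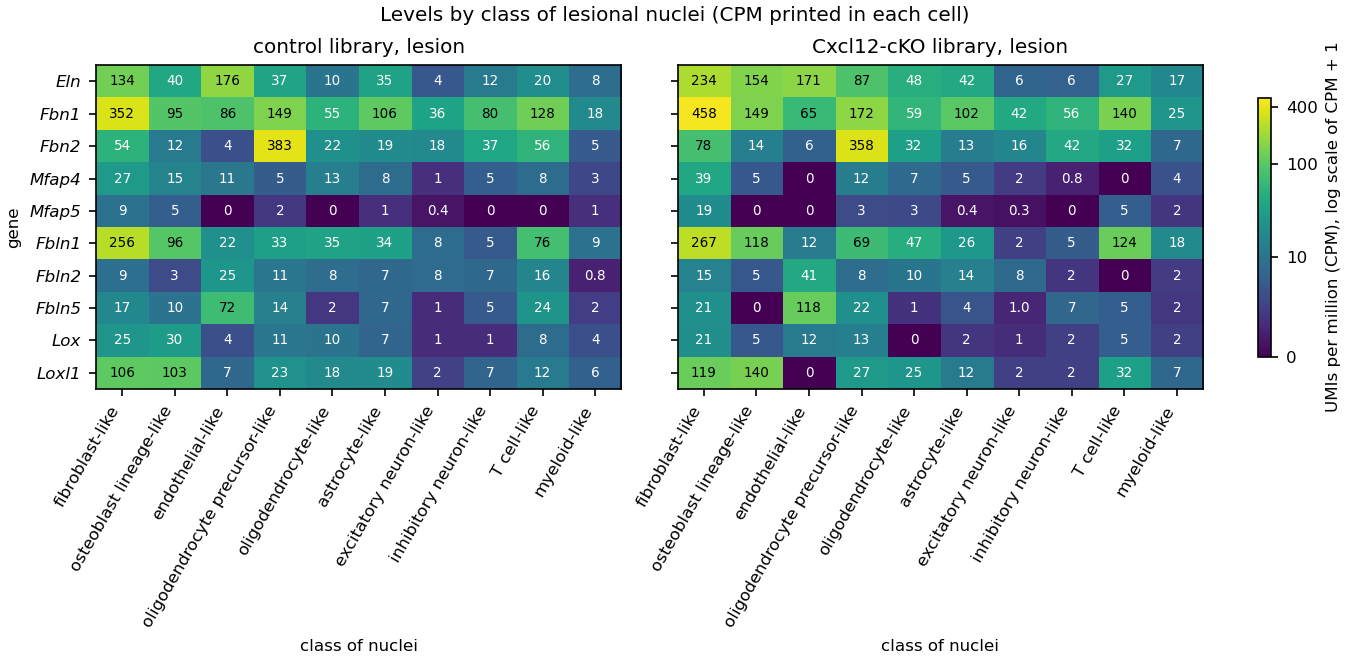
Levels of the 10 elastic fibre genes (rows) in 10 classes of lesional nuclei (columns), in CPM, for the control-labelled library (left) and the cKO-labelled library (right). The colour follows CPM + 1 on a log scale and the number in each cell is the CPM; the fibroblast-like column is the brightest for Fbn1 and Fbln1, while Fbn2 stands out in oligodendrocyte precursor-like nuclei at 383 and 358 CPM.

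The remaining members led in other cells. Fbn2, the fibrillin known from development, was highest in oligodendrocyte precursor-like nuclei, at 383 CPM (334 to 437) in the control-labelled library and 358 CPM (321 to 397) in the cKO-labelled library, against 54.5 and 78.3 CPM in fibroblast-like nuclei. In 36.1% and 39.8% of those precursor-like nuclei at least 1 Fbn2 UMI was counted, where the myeloid-like nuclei gave 0.991% and 1.58% at median depths of 2045 and 2260 UMIs against 4127 and 4436. After thinning each nucleus to 1000 UMIs the shares were 27.7% and 16.9% against 0.527% and 0.662%. Fbln5 was highest in endothelial-like nuclei, with 72.0 CPM (44.0 to 111) and 118 CPM (72.0 to 182) in the control- and cKO-labelled libraries against 17.2 and 21.4 CPM in fibroblast-like nuclei. Fbln2 was also highest there, though it rested on 7 UMIs in each library (25.2 CPM, 10.1 to 51.9, and 41.2 CPM, 16.6 to 85.0). Thus the endothelial-like class carried tropoelastin and both of these fibulins, in 110 and 55 lesional nuclei. Smooth muscle-like nuclei were too few to be ranked (20 and 6 in the lesion), yet held 14 and 28 Eln UMIs, at 335 CPM (183 to 562) and 2098 CPM (1394 to 3032).

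Low levels in other classes were set beside the summed fibroblast markers, since free RNA from fibroblasts would carry both in a like ratio. Per 1000 UMIs of the fibroblast markers, fibroblast-like nuclei held 85.0 and 126 Fbn1 UMIs in the control- and cKO-labelled libraries, and myeloid-like nuclei, in which every member was below 26 CPM, held 34.3 and 73.1. On this scale Eln, Fbn1, Fbn2, Fbln1, Fbln5 and Loxl1 were lower in myeloid-like than in fibroblast-like nuclei in both libraries. Lox was slightly higher in myeloid-like nuclei in both, at 6.75 and 6.64 against 5.99 and 5.86, and Mfap4, Mfap5 and Fbln2 were higher in 1 library each, as with Fbln2 at 5.62 against 4.07 in the cKO-labelled library. The ratio was of another order in parenchymal excitatory neuron-like nuclei, at 891 and 851 Fbn1 UMIs, 718 and 668 Fbn2 UMIs and 299 and 304 Fbln2 UMIs per 1000 marker UMIs, against 13.1 and 21.6 for Fbn2 and 2.09 and 4.07 for Fbln2 in lesional fibroblast-like nuclei. In endothelial-like nuclei it was 127 and 282 for Fbln5, against 4.15 and 5.91 in fibroblast-like nuclei. For oligodendrocyte precursor-like nuclei this scale is less apt, since Pdgfra marks them as well, but it gave 282 and 240 for Fbn2.

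Lesional fibroblast-like nuclei were divided into states without the members and the wider elastic fibre lists, and the states differed widely in elastic fibre genes. The 4 named states were late inner-like (2179 nuclei), Lama1 leptomeningeal-like (867), Ranbp3l leptomeningeal-like (2934) and dural border-like (2216), and 39 nuclei led by Cxcl9 and Cxcl10 stayed unnamed. Late inner-like nuclei were named from a list of Fgf13, Cdh18 and Sema3c. The list for leptomeningeal-like nuclei was Aldh1a2, Lama1, Ranbp3l, Slc7a11, Slc4a10 and Lama2, and Lama1 and Ranbp3l told the leptomeningeal-like states apart. The list for dural border-like nuclei was Alpl, Slc47a1, Slco4a1, Dnajc5b, Foxc2 and Slc26a7. A list for the lymphocyte-interactive fibroblasts of the paper (Cd80, Ccl19, Cxcl16 and Cxcl12) named no state. All 3 late inner markers were up, but only 3 of 6 in dural border-like nuclei and 3 of 6 in each leptomeningeal-like state. The mean log2 fold of the list was lowest, 0.80, in Ranbp3l leptomeningeal-like nuclei. Since states are clusters of the same nuclei, their levels are a description with no test. Of the 10 members, 7 had their highest level in CPM in late inner-like nuclei, where 27.7% of 16577 genes did. The fibroblast markers were also high in that state, and per marker UMI the first place did not hold for all 7, as given below. Fbn2 and Fbln2 were highest in Lama1 leptomeningeal-like nuclei (31.0% of genes), Fbln1 in dural border-like nuclei (18.9%), and none in Ranbp3l leptomeningeal-like nuclei (22.4%). Against all other lesional fibroblast-like nuclei, 9 members were at least 1.5-fold higher in late inner-like nuclei (13.2% of genes) and 1, Fbln1, was as far lower (12.6%). In Ranbp3l leptomeningeal-like nuclei none was as far higher (9.81%) and 7 were lower (13.1%), and in dural border-like nuclei 1 was higher (7.51%) and 8 were lower (16.2%). Lama1 leptomeningeal-like nuclei had 2 members higher (14.1%) and 1, Mfap4, lower (14.5%).

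Tropoelastin was the member with the highest ratio of late inner-like over all other lesional fibroblast-like nuclei, but Lama1 leptomeningeal-like nuclei were high in it too. Eln stood at 522 CPM (506 to 537) in late inner-like and 252 CPM (234 to 272) in Lama1 leptomeningeal-like nuclei. It was at 22.4 CPM (19.4 to 25.7) in dural border-like and 19.9 CPM (17.1 to 23.0) in Ranbp3l leptomeningeal-like nuclei. Between late inner-like and Lama1 leptomeningeal-like nuclei, Mfap4 lay further apart in fold, at 87.0 and 20.7 CPM. The mice of a library were told apart by sex-linked UMIs. By mouse, the late inner-like level was 475 and 511 CPM in the female and male mouse of the control-labelled library, and 283 and 788 CPM in those of the cKO-labelled library. All 4 mice had the same highest and next state, and the male mouse of the cKO-labelled library stood above the others in both. Beside the other lesional fibroblast-like nuclei the log2 ratio was 3.33 (3.23 to 3.43), the rank 35 of 16577 genes. Late inner-like nuclei held 74.4% and 82.8% of the fibroblast Eln UMIs in the control- and cKO-labelled libraries, while giving 21.7% and 34.6% of the fibroblast UMIs of all genes.

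The microfibril-associated genes followed the same order of states. Mfap4 stood at 87.0 CPM (80.7 to 93.6) in late inner-like nuclei and between 5.30 and 20.7 CPM in the other named states, with a log2 ratio of 2.87 (2.66 to 3.09) over the other fibroblast-like nuclei. Mfap5 stood at 36.0 CPM (32.0 to 40.3) in late inner-like nuclei and between 3.75 and 13.3 CPM elsewhere, a log2 ratio of 2.62 (2.32 to 2.94). Both were highest in late inner-like nuclei in 4 of 4 mice. Of the fibrillins, Fbn1 was spread more evenly and Fbn2 was not. Fbn1 was at 625 CPM (608 to 643) in late inner-like, 513 CPM (487 to 541) in Lama1 leptomeningeal-like, 303 CPM (292 to 314) in Ranbp3l leptomeningeal-like and 275 CPM (264 to 286) in dural border-like nuclei, in the first place in 4 of 4 mice. Fbn2 was at 168 CPM (153 to 184) in Lama1 leptomeningeal-like and 127 CPM (119 to 135) in late inner-like nuclei, against 34.4 and 13.7 CPM in Ranbp3l leptomeningeal-like and dural border-like nuclei. Its first place went to Lama1 leptomeningeal-like nuclei in both male mice and to late inner-like nuclei in both female mice, so the order of those 2 states did not hold over mice.

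The fibulins went separate ways. Fbln1 was the member that ran against the rest: dural border-like nuclei had 390 CPM (378 to 404), Lama1 leptomeningeal-like 242 CPM (224 to 261), Ranbp3l leptomeningeal-like 212 CPM (202 to 221) and late inner-like nuclei 185 CPM (176 to 195). The dural border-like level was the highest in 4 of 4 mice, at 430 and 358 CPM in the female and male mouse of the control-labelled library and 350 and 417 CPM in those of the cKO-labelled library. Fbln2 stood at 57.3 CPM (48.6 to 67.0) in Lama1 leptomeningeal-like nuclei, 16.9 CPM (14.2 to 19.9) in late inner-like nuclei and 0.57 CPM in dural border-like nuclei, where 5 UMIs were counted in 2216 nuclei. Its order was the same in 4 of 4 mice for the first place. Fbln5, which brings elastin to the fibre, was at 32.5 CPM (28.7 to 36.7) in late inner-like nuclei and 22.5 CPM (17.2 to 29.0), 15.2 CPM (12.7 to 17.9) and 10.5 CPM (8.48 to 12.8) in Lama1 leptomeningeal-like, dural border-like and Ranbp3l leptomeningeal-like nuclei.

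Of the cross-linking enzymes, Loxl1 was at 201 CPM (191 to 211) in late inner-like nuclei, 136 CPM (122 to 150) in Lama1 leptomeningeal-like nuclei, and 71.8 and 64.3 CPM in dural border-like and Ranbp3l leptomeningeal-like nuclei. Lox was at 34.1 CPM (30.2 to 38.4) in late inner-like nuclei and 23.7, 18.5 and 17.0 CPM in Lama1 leptomeningeal-like, Ranbp3l leptomeningeal-like and dural border-like nuclei. The separate Poisson intervals of these last states overlapped, which does not show that their levels were equal. Both enzymes were highest in late inner-like nuclei in 4 of 4 mice. Ranbp3l leptomeningeal-like and dural border-like nuclei also overlapped in their separate intervals for Eln, Loxl1, Mfap5 and, only at the edges, Fbln5. Their intervals lay apart for Fbn1, Fbn2, Mfap4, Fbln1 and Fbln2. A UMI of Eln was counted in 34.8% of late inner-like nuclei and 4.74% of Ranbp3l leptomeningeal-like nuclei, and in 19.2% and 1.73% once each nucleus was thinned to 1000 UMIs. In lesional myeloid-like nuclei the thinned share was 1.06% and 0.865% in the control- and cKO-labelled libraries. The fibroblast markers themselves were higher in late inner-like nuclei, at 7824 and 5660 CPM, than in Ranbp3l leptomeningeal-like nuclei, at 2969 and 2411 CPM. Per 1000 marker UMIs, with both libraries together, Eln (80.5), Mfap4 (13.4) and Mfap5 (5.55) were still highest in late inner-like nuclei. Fbn1 (96.4), Lox (5.26), Fbln5 (5.02) and Loxl1 (31.0) were not. Lama1 leptomeningeal-like nuclei held more of them, at 142, 6.56, 6.25 and 37.6, and came next for Eln at 70.0. By library, Eln per 1000 marker UMIs was level in late inner-like (58.4) and Lama1 leptomeningeal-like nuclei (58.2) of the control-labelled library. Its first place came from the cKO-labelled library, at 99.1 against 80.2.

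**Figure D2:**
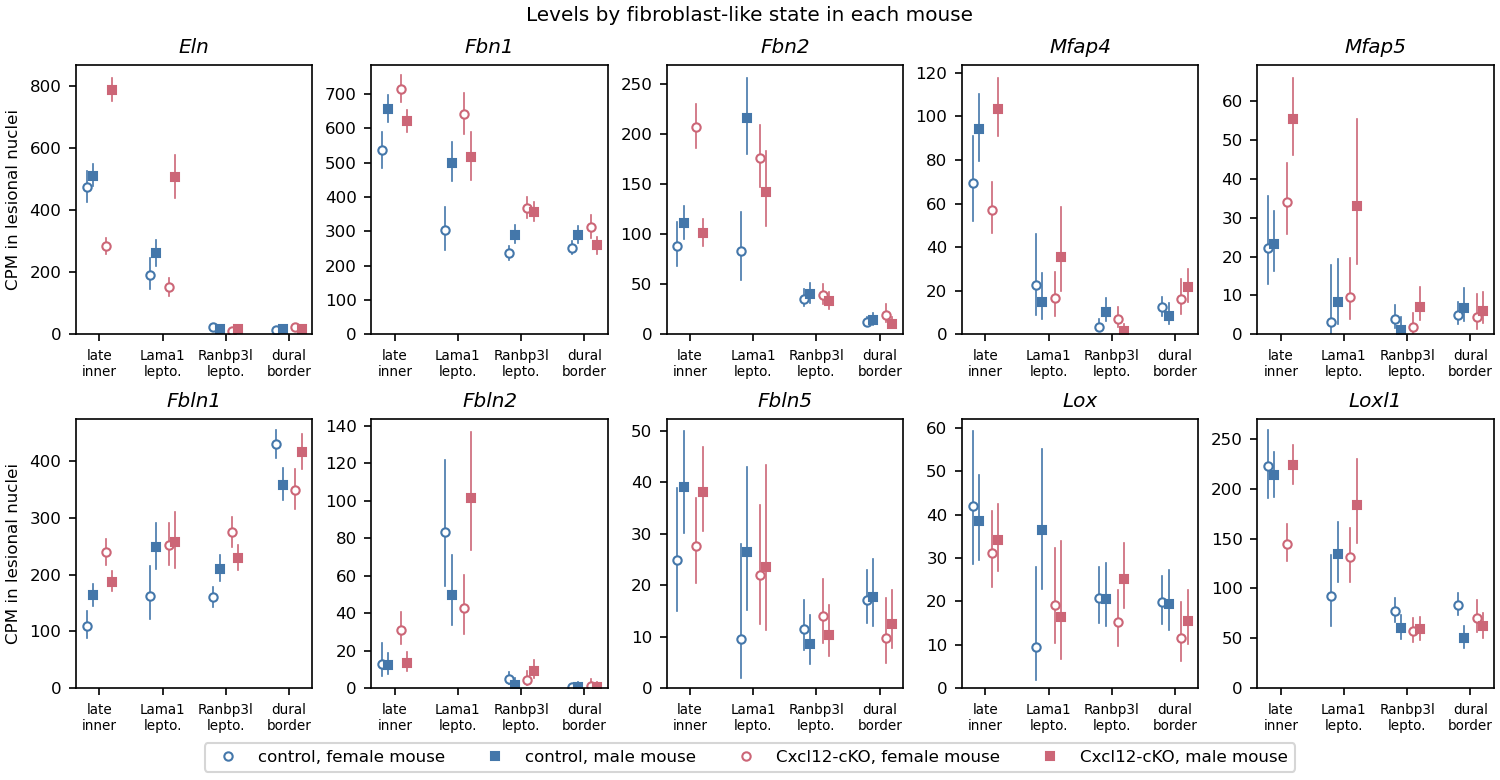
Level of each elastic fibre gene, in CPM (vertical axis, separate scale for each gene), in 4 states of lesional fibroblast-like nuclei for each of 4 mice. Circles are female and squares male mice, blue is the control-labelled library and red the cKO-labelled library, and vertical lines are exact Poisson 95% intervals; late inner-like nuclei hold the highest point of every mouse for Eln, Fbn1, Mfap4, Mfap5, Fbln5, Lox and Loxl1, and dural border-like nuclei for Fbln1.

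Fibroblast-like nuclei of the parenchyma carried little tropoelastin. They were few, 51 and 49 in the control- and cKO-labelled libraries, and held 1 and 2 Eln UMIs, or 4.47 CPM (0.11 to 24.9) and 9.46 CPM (1.14 to 34.2), against 134 and 234 CPM in the lesion. With both libraries together the log2 ratio of lesion to parenchyma was 4.52 (3.20 to 7.02), and the lower bounds in the separate libraries were 2.42 and 2.78. For comparison, the fibroblast markers differed by 1.74 (1.62 to 1.87) on the log2 scale. Of the 10 members 7 were at least 1.5-fold higher in lesional than in parenchymal fibroblast-like nuclei, where 20.5% of 16631 genes were, and none was as far lower (28.6%). Among the 7, Eln, Mfap4, Mfap5 and Lox rested on 3, 4, 1 and 4 parenchymal UMIs, and the interval of Lox included 0 (-0.04 to 3.20). Fbn2 had a log2 ratio of 3.02 in the control-labelled library, on 1 parenchymal UMI, but 0.29 (-0.43 to 1.26) in the cKO-labelled library. Fbn1 was higher in the lesion by 1.86 (1.47 to 2.32) on the log2 scale, with 406 against 110.3 CPM, and Loxl1 by 1.75 (1.05 to 2.68), with 112 against 32.2 CPM. Fbln1 differed least among the members with a clear difference, at 184 CPM (146 to 229) in the parenchyma and 261 CPM in the lesion, a log2 ratio of 0.50 (0.19 to 0.84). Fbln2 and Fbln5, with 6 and 9 parenchymal UMIs, had intervals of -1.37 to 1.23 and -1.03 to 1.04, so that a difference was not detectable at this depth. The state of the parenchymal nuclei was not assigned, and a difference in makeup and a difference within a state cannot be told apart here.

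Neurons held fibrillin and fibulin UMIs in both regions. In parenchymal excitatory neuron-like nuclei Fbn1 was at 27.5 CPM (25.9 to 29.2) and 25.9 CPM (24.3 to 27.5) in the control- and cKO-labelled libraries, Fbn2 at 22.2 CPM (20.7 to 23.7) and 20.3 CPM (18.9 to 21.8), and Fbln2 at 9.24 CPM in both. These levels were close between the libraries. Inhibitory neuron-like nuclei of the parenchyma had more Fbn1, at 40.1 CPM (35.6 to 45.1) and 47.3 CPM (42.7 to 52.2), and less Fbn2, at 12.4 CPM (9.95 to 15.3) and 15.2 CPM (12.7 to 18.1). Among their clusters, the one led by Vip, Sst and Npy, which mark cortical interneurons, held 54.6 and 60.7 CPM of Fbn1, while the one led by Drd2 and Isl1, which mark striatal neurons, held 18.3 and 25.0 CPM.

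In the lesion, Fbn2 differed from the parenchyma in opposite directions in the neuron classes. It was higher in lesional inhibitory neuron-like nuclei by 1.58 (1.09 to 2.07) and 1.47 (0.98 to 1.93) on the log2 scale in the control- and cKO-labelled libraries, with 37.1 against 12.4 CPM and 41.8 against 15.2 CPM. In excitatory neuron-like nuclei it was lower by 0.27 on the log2 scale with both libraries together (-0.50 to -0.06), with 17.6 against 21.3 CPM, and in the separate libraries the log2 ratios were -0.29 (-0.56 to -0.03) and -0.31 (-0.76 to 0.09). Fbn1 was higher in lesional than in parenchymal excitatory neuron-like nuclei by 0.49 (0.33 to 0.65), with 37.5 against 26.7 CPM. The fibroblast markers were higher in the lesional nuclei of both classes, by 2.08 (1.98 to 2.17) and 2.23 (2.07 to 2.40), and their part in these differences was not tested, nor was that of the kinds of neuron in each region. The other members measured in excitatory neuron-like nuclei were all low, with at most 6.35 CPM in the lesion apart from Fbln2 at 7.75 CPM, and 6 of the 9 members with enough UMIs were at least 1.5-fold higher in the lesion (7.41% of genes) and none as far lower (27.7%). With both libraries together all 6 had log2 ratios below that of the fibroblast markers, from 0.68 for Fbln5 (-0.40 to 1.55) to 2.02 for Lox (0.90 to 3.03). The intervals of Lox, Fbln1 (1.46 to 2.33) and Loxl1 (1.05 to 2.51) included the marker ratio. In the control-labelled library Fbln1 (2.54) and Loxl1 (2.56) lay above the markers (2.255) and the rest of the 6 below. In the cKO-labelled library only Lox, on 4 lesional and 13 parenchymal UMIs, lay above them (2.05 against 1.495), and Fbln1 was at 0.23. In inhibitory neuron-like nuclei 6 of 7 were as far higher (8.5%) and 1, Fbln2, was lower (24.8%). Of the higher ones, only Loxl1 (2.35, 1.17 to 3.53) had a log2 ratio above that of the fibroblast markers. It rested on 14 UMIs in each region, and its interval included the marker ratio.

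**Figure D3:**
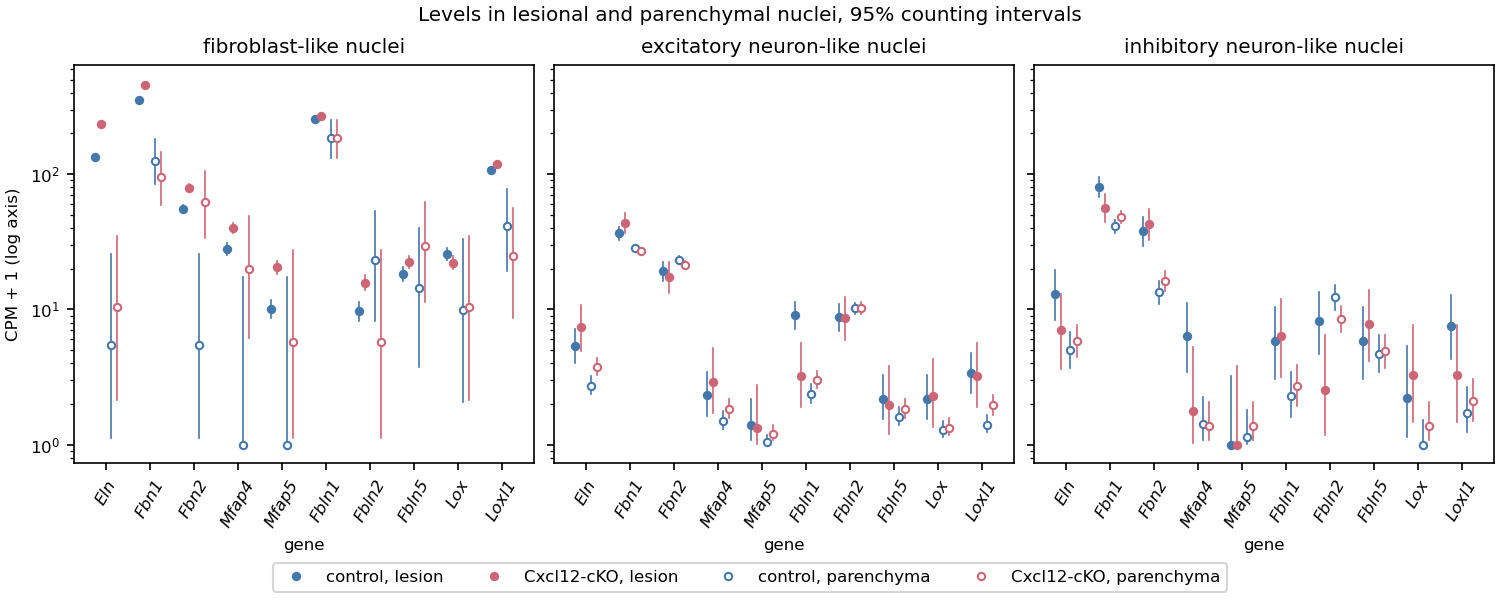
Levels of the elastic fibre genes in lesional (filled) and parenchymal (open) nuclei of 3 classes, as CPM + 1 on a log axis, for the control-labelled library (blue) and the cKO-labelled library (red). Vertical lines are exact Poisson 95% intervals; among fibroblast-like nuclei Eln lies under 10 CPM in the parenchyma and at 134 and 234 CPM in the lesion, and among inhibitory neuron-like nuclei Fbn2 lies higher in the lesion in both libraries.

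The comparison the study was designed for sets the cKO-labelled library against the control-labelled library in lesional fibroblast-like nuclei, of which there were 4075 and 4160. Of the members, 9 were higher and 1, Lox, was lower in the cKO-labelled library, with a median log2 ratio of 0.45 where the median over 16577 genes was 0.00. At least 1.5-fold higher were 3 members, Eln, Mfap5 and Fbln2 (5.39% of genes), and none was as far lower (4.32%, with 9.71% of genes past 1.5-fold in either direction). Eln stood at 134 CPM (128 to 140) in the control-labelled and 234 CPM (226 to 242) in the cKO-labelled library, a log2 ratio of 0.81 (0.73 to 0.89). Mfap5 stood at 9.10 CPM (7.60 to 10.8) and 19.4 CPM (17.2 to 21.8), a log2 ratio of 1.09 (0.79 to 1.40), and Fbln2 at 8.68 CPM (7.22 to 10.3) and 14.7 CPM (12.8 to 16.8), a log2 ratio of 0.76 (0.44 to 1.09) that fell below 1.5-fold, to 0.29, when nuclei were thinned to 1000 UMIs. The fibrillins Fbn1 and Fbn2 and the microfibril-associated Mfap4 were higher by 0.38 (0.32 to 0.43), 0.52 (0.39 to 0.66) and 0.53 (0.35 to 0.73). Fbln1, at 255 and 267 CPM, did not differ beyond counting error (log2 ratio 0.07, -0.00030 to 0.13), and the enzymes differed little, with Loxl1 at 105 and 119 CPM (0.17, 0.07 to 0.27) and Lox at 24.9 and 21.2 CPM (-0.23, -0.45 to -0.0058).

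The mice behind these sums did not all go the same way. Over the 4 mice, 3 members had both mice of the cKO-labelled library above both mice of the control-labelled library, where 20.7% of 15985 genes did, and none had them below (20.2%). Mfap5 was at 6.91 and 10.2 CPM in the female and male mouse of the control-labelled library and 14.2 and 26.4 CPM in those of the cKO-labelled library, and Fbln2 at 7.92 and 9.69 CPM against 17.9 and 14.8 CPM. The third was Fbn1, at 290.4 and 419 CPM against 510 and 439 CPM, where the male mice lay close together. Eln overlapped between libraries, with 86.3 and 188 CPM against 123 and 334 CPM, although it was higher in the cKO-labelled library within each sex, with a log2 ratio of 0.52 (0.34 to 0.69) between the female mice and of 0.82 (0.72 to 0.93) between the male mice. Within late inner-like nuclei alone, the female mice went the other way for Eln, as given below. In both libraries the male mouse had more Eln than the female. Fbn2 turned over: it was higher by 1.70 (1.46 to 1.94) in the female mice, with 109.6 against 33.7 CPM, and lower in the male mice, with 59.3 against 71.5 CPM, a log2 ratio of -0.27 (-0.48 to -0.06). The direction was the same in female and male mice for 7 of the 10 members, where it was for 57.9% of 13943 genes.

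The makeup of the fibroblast-like nuclei also differed between the libraries, and the ratios were computed again with the same shares of states in both. Late inner-like nuclei were 22.1% (20.9% to 23.4%) of them in the control-labelled library and 30.9% (29.5% to 32.3%) in the cKO-labelled library, and dural border-like nuclei 30.4% and 23.4%. By mouse, the late inner-like share was 14.7% and 26.7% in the female and male mouse of the control-labelled library and 28.6% and 33.6% in those of the cKO-labelled library. Mfap5 had its 4 mice in the order of this share, and the other members did not. The shares equalized were those of UMIs, not of nuclei, and late inner-like nuclei gave 21.7% and 34.6% of fibroblast UMIs in the control- and cKO-labelled libraries. When both libraries were given the state shares of the control-labelled library, the median log2 ratio of the members was 0.17 and only Mfap5 stayed past 1.5-fold, at 0.63. Eln was then at 0.27, Fbln2 at 0.38 and Fbn1 at 0.21, while Loxl1 changed sign to -0.05. With 1 library of each genotype, makeup and other differences between the libraries cannot be told apart.

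Within the states the differences between libraries were uneven, smaller than over all fibroblast-like nuclei for some members and larger for others. In late inner-like nuclei only Mfap5 was past 1.5-fold, at 23.2 CPM (72 UMIs) and 43.8 CPM (222 UMIs) in the control- and cKO-labelled libraries, a log2 ratio of 0.91 (0.53 to 1.32), where 6.18% of genes were as far higher and 6.54% as far lower. Eln there was at 457 and 561 CPM, a log2 ratio of 0.30 (0.20 to 0.39), but the mice went opposite ways. Its late inner-like level was 475 and 283 CPM in the female mice of the control- and cKO-labelled libraries, and 511 and 788 CPM in the male mice. Lama1 leptomeningeal-like nuclei had 192 and 151 CPM of Eln in the female mice, and 260 and 505 CPM in the male mice. Mfap4 in late inner-like nuclei was at 87.6 and 86.6 CPM (-0.02, -0.24 to 0.21). In Lama1 leptomeningeal-like nuclei Mfap5 and Fbln5 were past 1.5-fold higher (7.03% of genes) and Lox as far lower (7.03%), and in Ranbp3l leptomeningeal-like nuclei Mfap5 and Fbln2 were higher (5.48%) and none was lower (5.49%), though none of these 5 differences went beyond counting error. Fbn1 was higher in the cKO-labelled library in all 4 states, beyond counting error in 3, with log2 ratios from 0.08 in late inner-like to 0.45 in Ranbp3l leptomeningeal-like nuclei. Fbln1 was higher by 0.47 (0.32 to 0.63) in late inner-like and 0.42 (0.29 to 0.55) in Ranbp3l leptomeningeal-like nuclei and differed by -0.04 (-0.14 to 0.06) in dural border-like nuclei, the state in which it was highest. Lox was lower in all 4 states, beyond counting error only in late inner-like nuclei (-0.36, -0.71 to -0.01). In dural border-like nuclei Mfap4 was past 1.5-fold, at 12.4 and 21.5 CPM (0.80, 0.30 to 1.30), the 1 member as far higher (6.34% of genes) with none as far lower (4.51%).

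**Figure D4:**
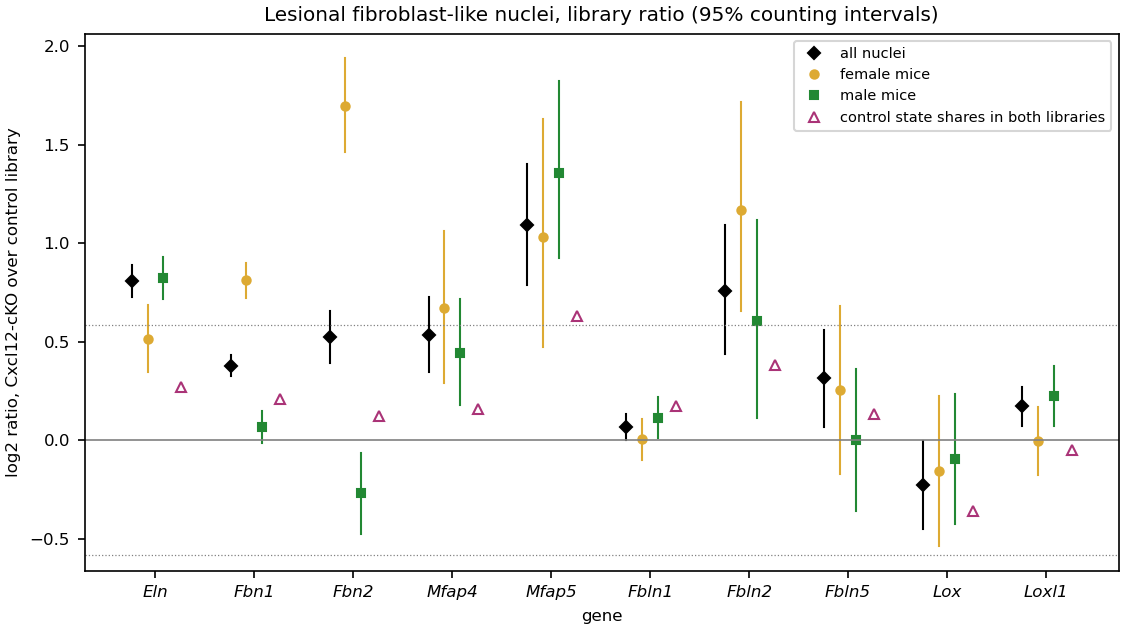
Log2 ratio of the cKO-labelled library over the control-labelled library for each elastic fibre gene in lesional fibroblast-like nuclei, for all nuclei (black diamonds), the female mice (yellow circles) and the male mice (green squares), with 95% counting intervals, and with the state shares of the control-labelled library given to both libraries (open triangles, no interval). Dotted lines mark 1.5-fold; Fbn2 lies at 1.70 in female and -0.27 in male mice, and the triangles for Eln, Fbn2 and Mfap4 lie nearer to 0 than the diamonds.

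The genes with lesional profiles most like each member were sought over 26 profiles (a class or fibroblast state in a library, at least 50 nuclei each) among 10961 genes, as Pearson correlations of log2(CPM + 10). The profiles share libraries, depth and free RNA, so the values are a description. Eln was closest to Bgn (r = 0.90), which encodes the matrix proteoglycan biglycan, then Smtn (0.82) and Mxra7 (0.82). Mfap5 was closest to another member, Mfap4 (0.85), then Dio2 (0.83) and Gm41724 (0.83). Mfap4 was closest to Gm41724 (0.86), Cygb (0.85) and Edar (0.83). Fbln1 had the closest neighbours of the fibulins, with Zic1 (0.97), Zic4 (0.97) and Eya2 (0.96), which encode transcription regulators of meningeal and other developing tissues. Fbln5 followed endothelial genes, Erg (0.92) and Calcrl (0.87), and then Grk5 (0.87). In these data Erg was also among the genes leading the late inner-like nuclei, the fibroblast state in which Fbln5 was highest. Fbln2 was closest to Col15a1 (0.84), Apcdd1 (0.75) and Tle1 (0.73), and Fbn2 to Gpsm2 (0.76), Cnot10 (0.75) and Vcan (0.75), the last a proteoglycan gene used to mark oligodendrocyte precursors. Fbn1 was closest to Araf (0.92), Gmds (0.90) and Tbx18 (0.90), Lox to Gm15952 (0.90), Tmem45a (0.87) and Zfp260 (0.86), and Loxl1 to Ednra (0.96), Alx4 (0.96) and Lrig3 (0.95). Between members the correlation ran from 0.07 (Fbln1 with Fbln2) to 0.88 (Fbln1 with Loxl1).

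Of 16 other microfibril and elastic fibre assembly genes, all measured with at least 20 UMIs in lesional fibroblast-like nuclei, 1 was at least 1.5-fold higher and 1 as far lower in the cKO-labelled library, with a median log2 ratio of -0.22 (5.39% and 4.32% of all genes were as far higher and lower). Ltbp2, which encodes a latent TGFβ binding protein that associates with fibrillin microfibrils, was at 79.2 and 168 CPM in the control- and cKO-labelled libraries (1.09, 0.98 to 1.19) and highest in late inner-like nuclei, at 269 CPM. The lower gene, Adamtsl2, rested on 22 and 13 UMIs (-0.78, -1.91 to 0.26). The genes of the list with the most UMIs were Thsd4, an ADAMTS-like microfibril gene, at 604 and 426 CPM (-0.50, -0.55 to -0.46), Efemp1, which encodes fibulin-3, at 333 and 269 CPM (-0.31, -0.37 to -0.25), and Hmcn1, which encodes hemicentin, at 254 and 274 CPM (0.11, 0.04 to 0.17). Thsd4 and Efemp1 were low in late inner-like nuclei, at 60.1 and 91.4 CPM against 799 and 354 CPM in Ranbp3l leptomeningeal-like nuclei and 707 and 456 CPM in dural border-like nuclei, unlike 7 of the 10 elastic fibre genes. In all, 8 of the 16 were highest in late inner-like nuclei among the states (27.7% of all genes) and 7 in fibroblast-like nuclei among the classes (7.47%).

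Of 4 other lysyl oxidase and copper delivery genes, 3 had at least 20 UMIs and none was past 1.5-fold, with a median log2 ratio of 0.02. These were Atp7a, the copper pump that loads lysyl oxidases, at 62.2 and 62.9 CPM, Loxl3 at 46.6 and 47.9 CPM and Loxl2 with 100 and 102 UMIs. Of 8 elastin-degrading enzymes, 6 had enough UMIs and none was past 1.5-fold. Mmp14 was at 161 and 155 CPM, Mmp2 at 34.5 and 45.8 CPM (0.41, 0.24 to 0.58) and Ctsl, a lysosomal protease, had 428 and 432 UMIs. No gene of either list had its highest lesional level in fibroblast-like nuclei, a count near the 7.47% of all genes that did. Mmp12, the macrophage elastase, was at 336 CPM and Ctss at 766 CPM in myeloid-like nuclei.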

How the data were processed

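The deposited values were counts: UMIs of each gene in each nucleus as whole numbers, not normalized, in 4 filtered matrices (1 for each region of each library) that the authors made with Cell Ranger 9.0.0 on GRCm39, per the labels. The nuclei had been sorted by DAPI and lesion and parenchyma carried separate tags. The counting of intronic reads: not given in the sources used here. Tag libraries entered only through the region of each matrix. The members and gene lists were chosen with earlier results of these data known.

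The matrices held 23489 barcodes. Barcodes in the outer 2.5% by UMIs or genes, or the highest 2.5% by mitochondrial share, were removed, which left 21743 nuclei. Leiden clustering (scanpy 1.11.5, leidenalg 0.10.2) at resolution 0.25 used 3000 variable genes (2000 for subclusters), 30 components and 20 neighbours, with the members, the wider lists, Cxcl12 and sex-linked and mitochondrial genes left out. Clusters were named from marker lists by their fold over the median cluster, with at least 3 markers up, and are written as class-like. The fold rule and the rule that a cluster with over 25% of nuclei holding UMIs of both sexes stayed unnamed as mixed (clusters of 322 and 94 nuclei) were set after clusters had been seen. Doublets were not removed, except in an alternative with Scrublet. A nucleus counted as female where it held Xist UMIs and none of Ddx3y, Uty, Kdm5d and Eif2s3y, and as male in the opposite case.

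UMIs were summed over nuclei and scaled to CPM with exact Poisson intervals. Log2 ratios had 0.5 added to each sum, an exact conditional 95% interval, and a minimum of 20 UMIs for counts of genes past 1.5-fold. The ratio and interval were checked on simulated counts. The text names all 10 members, the 3 genes most like each, the 3 of each wider list with the most UMIs and those past 1.5-fold, and Cxcl12. Mmp12, Ctss and the genes leading neuron clusters were named after their values were seen. Scripts ran under Python 3.11.15 with scipy 1.17.1, pandas 2.3.3 and numpy 2.4.6. Alternatives covered the barcode filter, clustering, scaling, thinning, sex, doublets, state shares and thresholds.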

Additional observations from a re-analysis of the deposited data

Results flagged for a closer look

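The log2 ratio of Fbn2 between the cKO- and control-labelled libraries, in lesional fibroblast-like nuclei, was 1.70 in the female mice and -0.27 in the male mice, opposite directions that each exceeded counting error. The difference between the sexes was not tested, since there was 1 mouse of each sex and library. Intervals of the female and male ratios also lay apart, in the same direction, for Eln (0.52 and 0.82) and Fbn1 (0.81 and 0.07). In late inner-like nuclei alone, Eln went from 475 CPM in the control-labelled to 283 CPM in the cKO-labelled library in the female mice. In the male mice it went from 511 to 788 CPM.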

How the results depend on the processing

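No paired analysis was possible because each genotype had 1 library and no result came from a test, and the ratios within each sex are values of 1 mouse against 1. The median log2 ratio of the members between libraries, 0.45, stayed positive under every alternative run. It was set beside the range from the median lower bound to the median upper bound of the members, which is not an interval of the median itself. It left this range when nuclei were thinned to 1000 UMIs (0.29), in the male mice alone (0.17) and with the state shares of the control-labelled library in both libraries (0.17). The number of members past 1.5-fold, 3, became 5 in the female mice alone, 1 with equal state shares, 1 at 2-fold, 2 after thinning, where Fbln2 (0.29) was lost, and 4 with marker-based classing or without nuclei of both sexes. The share of member UMIs in fibroblast-like nuclei, 82.2% over both libraries, was 70.4% when single nuclei were classed by their markers, 85.0% with nuclei weighted alike, 85.0% after thinning, 79.6% and 89.1% in the female and male mice, 84.6% without nuclei holding UMIs of both sexes and 89.5% without the 10% of nuclei with the highest Scrublet scores. Counts of members highest in fibroblast-like nuclei ran from 4 in the female mice to 8 over classes of at least 200 nuclei, and of members highest in late inner-like nuclei from 7 to 8. Of 130 single-gene ratios 4 reversed: Fbn2 (-0.27) and Fbln5 (-0.00069) in the male mice, and Loxl1 in the female mice (-0.0041) and with equal state shares (-0.0511). The causes were not tested. In parenchymal fibroblast-like nuclei 3 UMIs, the floor used for a count of 0, came to 13.4 and 14.2 CPM in the control- and cKO-labelled libraries.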
